A study of Sus scrofa with 4 samples.

Results

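Matricellular glycoproteins are secreted proteins that sit in the extracellular matrix but act mainly on how cells attach, migrate and read growth factors, and less as structural fibres. The 10 genes described here are TNC, THBS1, THBS2, SPARC, POSTN, FN1, FNDC1, SMOC2, FBLN1 and TGFBI, which were chosen by name as matricellular or fibronectin-like glycoproteins and read from a table of 29837 named genes. The choice was made with earlier results of these data known. All 10 were in the table, and all 10 were among the 15980 genes that passed a filter on low counts. They are compared here between LGR5-high and LGR5-negative cells of pig epidermis, the comparison the study was designed for.

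RNA was sequenced from sorted cells of 2 juvenile pigs, 88R and 95R, and each pig gave 1 LGR5-high and 1 LGR5-negative library. The animals belong to a transgenic line in which H2B-GFP, a nuclear fluorescent protein, was inserted by CRISPR/Cas9 into exon 1 of 1 LGR5 allele and is driven by the LGR5 promoter. The line was made from clonal fetal fibroblasts by somatic cell nuclear transfer, and both populations carry the same insertion. Whether these 2 pigs were clones or their progeny is not given in the sources used here. The LGR5-high cells are those gated as GFP-hi and the LGR5-negative cells those gated as GFP-neg, both from hair and epidermis that had been taken off the dermis with Dispase II and dissociated with trypsin.

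Tenascins, thrombospondins and fibronectin are large modular proteins bound by integrins, while SPARC and the SMOC proteins bind calcium and collagen or growth factors, and fibulins link elastic fibres and basement membranes. POSTN and TGFBI share fasciclin domains and are known as proteins induced by TGF-beta. In skin these proteins are best known from the dermis, from the basement membrane zone and from wound repair, where several of them are made by fibroblasts and by keratinocytes.

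Paired values below are always those of pig 88R and then of pig 95R. The libraries held between 30696803 and 32463362 counts on named genes, and 3 counts, the floor used here, were worth between 0.0873 and 0.105 CPM (read counts scaled to a common library total by edgeR's TMM factors). LGR5 itself had 132 and 188 CPM in LGR5-high and 1.26 and 3.61 CPM in LGR5-negative cells, in the order of the sort on its reporter. The keratin gene KRT5, which marks basal keratinocytes, had on average 24577 CPM in LGR5-high cells against 27843 CPM in LGR5-negative cells, so both populations had the labelled epidermal character. KRT14 was not among the named genes under that symbol and could not be read. The 2 libraries of a population came from different animals, so every p-value below rests on only 2 pigs. Tests with the pig as a replicate block take the difference between the pigs out first. In edgeR the spread of each gene is also drawn towards that of the other genes. In sorted bulk RNA, fewer cells that express a gene and less RNA of it per cell cannot be told apart.

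Of the 10 genes, 5 were higher in LGR5-high (TNC, THBS1, THBS2, FNDC1 and FBLN1) and 2 were lower (POSTN and SMOC2) at an adjusted p under 0.05 (quasi-likelihood F test of edgeR, Benjamini-Hochberg adjustment across the tested genes). SPARC, FN1 and TGFBI did not pass. Among all genes tested 22.7% were higher and 22.0% were lower, so that calls in either direction are common between these populations, at 44.7% of genes. The median log2 fold change of the 10 genes was 0.74, midway between FBLN1 and TGFBI, beside 0.02 for all genes tested. The 10 genes, like the lists of relatives and receptors below, were chosen with earlier results of these data known. Their counts and medians therefore cannot show that such genes change more often than others. The libraries of the populations did not overlap in CPM for 8 of the 10 genes, against 76.6% of all genes tested, which is too close a share to set these genes apart. When the pig entered that test as a replicate block, SPARC and FN1 were also lower, which raised the lower genes from 2 to 4 and left the 5 higher genes as they were. With the block, 28.5% of all genes were higher and 27.2% lower, or 55.7% in either direction.

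**Figure D1:**
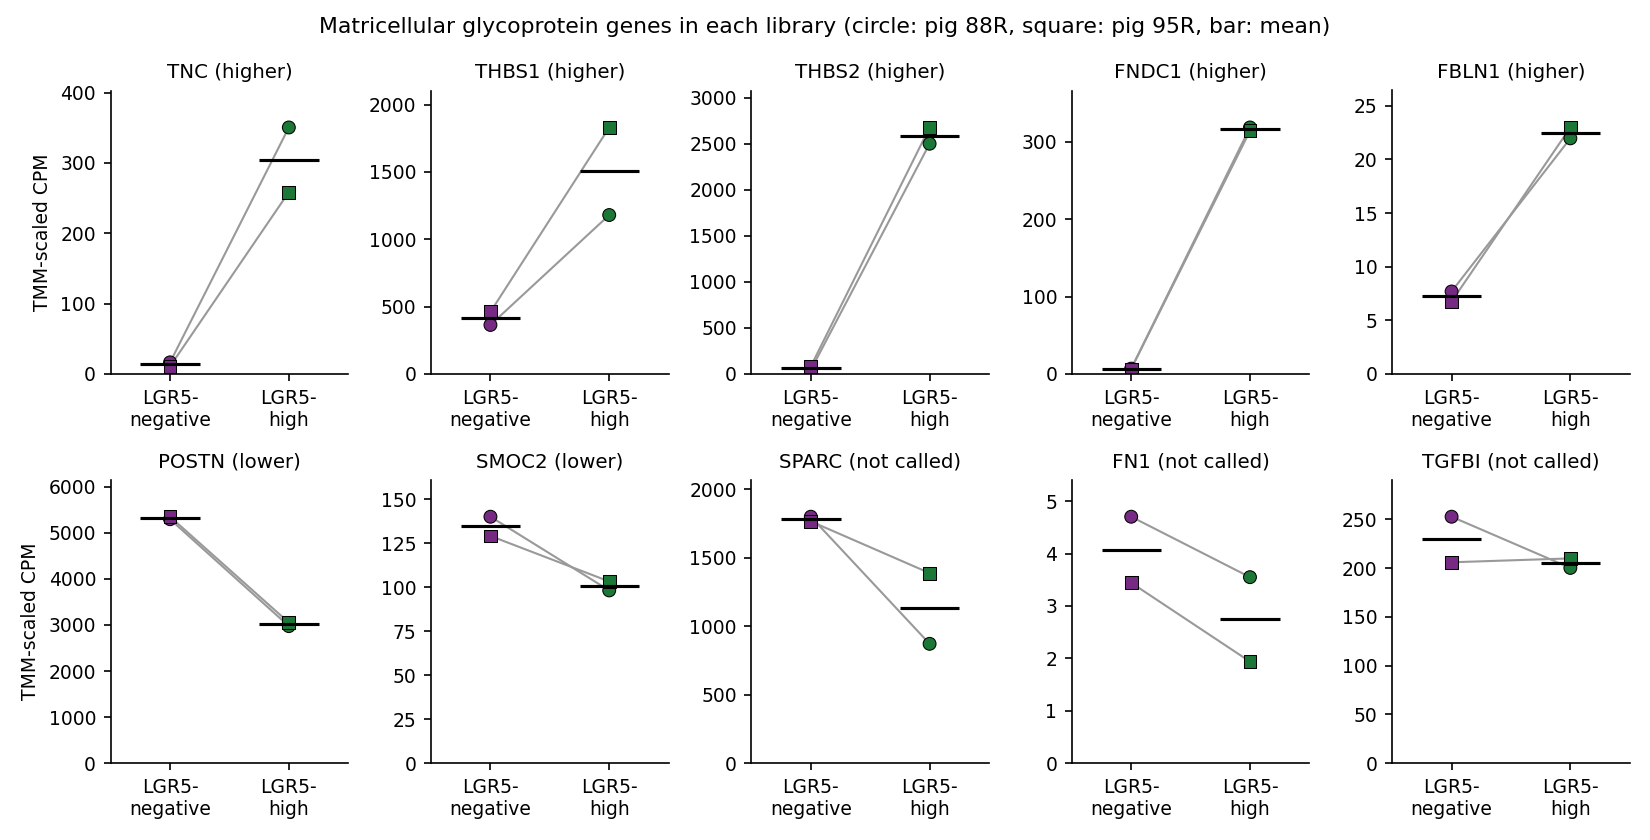
TMM-scaled CPM (linear axis from 0, a separate scale for each gene) of the 10 genes in the LGR5-negative (purple) and LGR5-high (green) libraries of pigs 88R (circles) and 95R (squares), with lines joining the libraries of 1 pig and bars at the population mean. The 5 genes of the upper row are higher in both LGR5-high libraries, POSTN and SMOC2 are lower in both, and in FN1 and TGFBI the populations overlap.

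FNDC1 encodes a secreted protein with fibronectin type III domains, and its log2 fold change over both pigs was the largest of the 10 genes, although that of THBS2 was larger in pig 88R and its confidence interval spans the estimate of FNDC1. It had 10946 and 10374 counts in LGR5-high cells, and 195 counts in each of the LGR5-negative libraries. After scaling these were 318 and 314 CPM in LGR5-high cells against 6.84 and 6.45 CPM in LGR5-negative cells. The pigs were thus nearly identical within each population, with a coefficient of variation of 0.98% in LGR5-high and 4.15% in LGR5-negative. The mean CPM was 47.6-fold higher in LGR5-high, and the log2 fold change was 5.57 (SE, the standard error, = 0.0949, edgeR adjusted p = 2.39e-05). The pigs' own values were 5.53 and 5.59. FNDC1 was called in all 14 alternative settings, and its log2 fold change stayed between 5.37 and 5.80.

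FN1, the fibronectin gene itself, shares the type III repeat with FNDC1 but was barely detected in either population. It had 122 and 64 counts in LGR5-high cells against 134 and 104 counts in LGR5-negative cells. These counts gave 3.55 and 1.94 CPM in LGR5-high cells against 4.70 and 3.44 CPM in LGR5-negative cells. The value of pig 88R in LGR5-high lay above that of pig 95R in LGR5-negative, so the populations overlapped, although within each pig LGR5-high had the smaller value. The log2 fold change was -0.57 with a 95% confidence interval from -1.46 to 0.32 (edgeR adjusted p = 0.246). With the replicate block the log2 fold change was -0.60 (edgeR adjusted p = 0.048), and over the alternatives the adjusted p lay between 0.048 and 0.714. A decrease of FN1 in LGR5-high was therefore detected only when the difference between the pigs was taken out, and in none of the other 13 settings.

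TNC encodes tenascin-C, a glycoprotein of embryonic and wound matrix that is also found around hair follicles. It had 350 and 259 CPM in LGR5-high cells against 16.4 and 10.8 CPM in LGR5-negative cells. Pig 95R had the lower value in both populations, at 0.738 times that of pig 88R in LGR5-high and 0.655 times in LGR5-negative. The difference between populations was far larger than that between pigs, with 304.5 ± 65.0 CPM (SD, n = 2) in LGR5-high cells against 13.6 ± 4.01 CPM in LGR5-negative cells. The mean CPM was 22.4-fold higher in LGR5-high, the log2 fold change was 4.49 (SE = 0.258, edgeR adjusted p = 0.00016), and the pigs' own log2 fold changes were 4.41 and 4.58. Of the other tenascin genes, TNN, which encodes tenascin-N, had a log2 fold change of 4.15 (edgeR adjusted p = 0.000124), with 46.6 and 67.0 CPM in LGR5-high cells against 3.23 and 3.18 CPM in LGR5-negative cells. TNXB did not pass the test, with a log2 fold change of -0.53, and TNR had too few counts to be tested.

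THBS1 and THBS2 encode thrombospondin-1 and thrombospondin-2, trimeric glycoproteins known for limiting angiogenesis and for binding the receptors CD36 and CD47. Both were higher in LGR5-high, by different amounts. THBS2 had 2502 and 2679 CPM in LGR5-high cells against 43.3 and 81.5 CPM in LGR5-negative cells. The LGR5-high libraries were thus close together, and the LGR5-negative libraries differed by 1.88 times between the pigs. The mean CPM of THBS2 was 41.5-fold higher in LGR5-high, and its log2 fold change was 5.37 (95% confidence interval 4.56 to 6.19, edgeR adjusted p = 0.000186). The pigs' own values were 5.85 and 5.04, and this gap of 0.81 was the widest between the pigs among the 10 genes.

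THBS1 was plainly expressed in both populations. It had 1180 and 1830 CPM in LGR5-high cells against 364 and 460 CPM in LGR5-negative cells. Pig 95R had the higher value in both populations, 1.55 times that of pig 88R in LGR5-high and 1.27 times in LGR5-negative. The mean CPM was 3.65-fold higher in LGR5-high, and the log2 fold change of 1.87 (95% confidence interval 1.29 to 2.44, edgeR adjusted p = 0.00188) had an interval that did not reach that of THBS2. The related genes THBS3 and THBS4 were also higher, with log2 fold changes of 3.39 and 4.66 (edgeR adjusted p = 0.000698 and 0.00274), so that all 4 thrombospondin genes tested were higher in LGR5-high. The estimate of THBS4 rests on 352 and 461 counts against 3 and 25 counts. COMP, which encodes the remaining thrombospondin, had at most 2 counts in a library and was not tested.

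SPARC encodes osteonectin, a collagen-binding protein that gives its name to a family with SPARCL1, the SMOC and SPOCK proteins and FSTL1. SPARC had 871 and 1387 CPM in LGR5-high cells against 1798 and 1764 CPM in LGR5-negative cells. The LGR5-negative libraries were almost equal, and both LGR5-high libraries lay below them by different amounts. The pigs' own log2 fold changes were -1.05 and -0.35. The test gave -0.66 (95% confidence interval -1.19 to -0.13), with an unadjusted p of 0.0229 and an adjusted p of 0.051 in edgeR, just outside the threshold. With the replicate block the log2 fold change was -0.70 (edgeR adjusted p = 0.00012), and over the 14 alternatives, 7 of which called SPARC lower, the adjusted p lay between 5.85e-06 and 0.272. Without the LGR5-high library of pig 95R the log2 fold change was -1.03 and passed the test, and without that of pig 88R it was -0.37 and did not.

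SMOC2, a modular calcium-binding protein of basement membranes, was lower in LGR5-high by a small and fairly even amount. It had 98.1 and 103 CPM in LGR5-high cells against 140.0 and 129 CPM in LGR5-negative cells. The populations did not overlap, and the mean CPM was 1.34-fold higher in LGR5-negative. The log2 fold change was -0.42 (SE = 0.0829, edgeR adjusted p = 0.01). This call was lost without the LGR5-high library of pig 88R, where the log2 fold change was -0.39, and when plain library size replaced TMM, where it was -0.19.

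The closest relative of SMOC2 went the other way. SMOC1, known as an antagonist of BMP signals, had 697 and 976 counts in LGR5-high cells against 6 and 1 counts in LGR5-negative cells, with a log2 fold change of 7.66 (SE = 0.481, edgeR adjusted p = 0.000193). With so few LGR5-negative counts its size was loosely determined, and the alternatives put it between 4.51 and 9.39. SPARCL1, the closest relative of SPARC, had a log2 fold change of 3.95 (edgeR adjusted p = 0.000495), with 249.9 and 133 CPM in LGR5-high cells against 13.7 and 11.1 CPM in LGR5-negative cells. FSTL1 had a log2 fold change of 3.13 and SPOCK2 one of 1.02, and both were called higher. Of the 7 genes tested in this family, 4 were higher, 1 was lower and 2 were not called, the latter being SPARC and SPOCK1. The call of SPOCK2 was lost in 3 of the 4 settings that left out a library, namely without the LGR5-negative library of pig 95R or without either LGR5-high library.

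**Figure D2:**
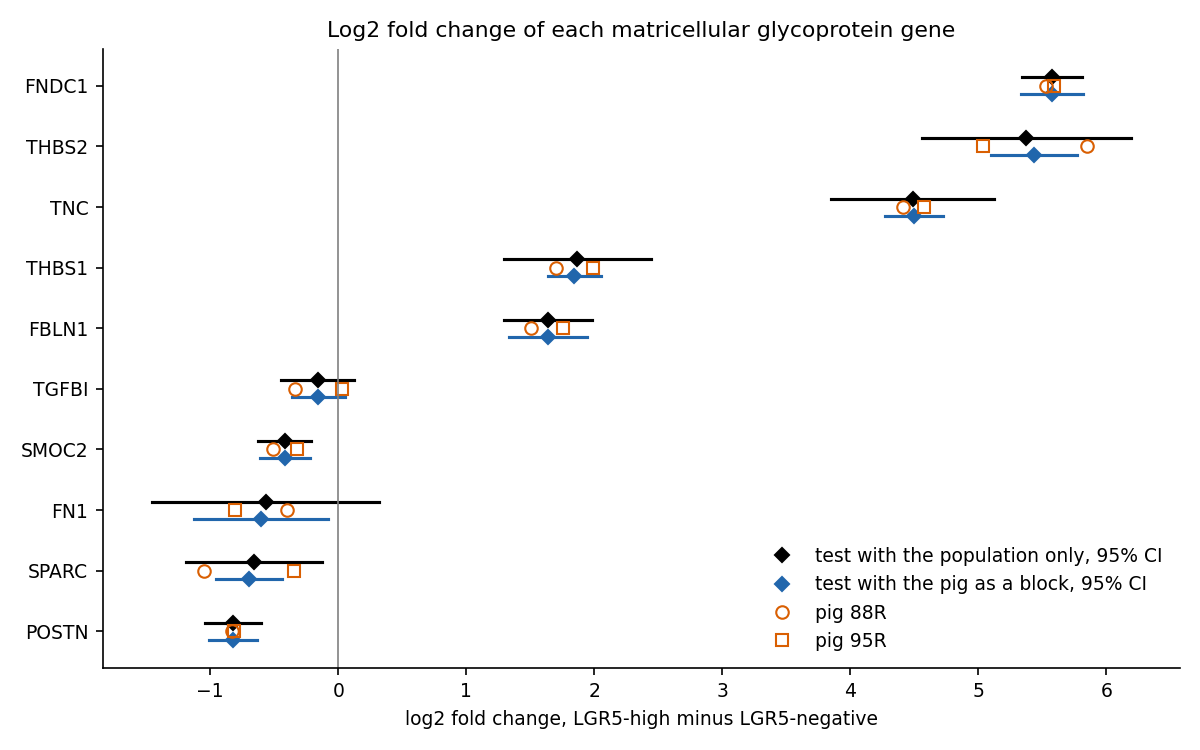
Log2 fold change (LGR5-high minus LGR5-negative) of the 10 genes, with diamonds and lines for the estimate and 95% confidence interval of the test with the population only (black) and with the pig as a block (blue), and open symbols for pig 88R (circles) and pig 95R (squares). FNDC1, THBS2 and TNC lie above 4, THBS1 and FBLN1 between 1 and 2, and the other 5 genes below 0, with the pigs farthest apart in THBS2 and SPARC.

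POSTN and TGFBI encode periostin and the TGF-beta-induced protein, which share fasciclin domains. POSTN had 102288 and 100815 counts in LGR5-high cells against 150945 and 161704 counts in LGR5-negative cells. It was thus strongly expressed in both populations, at 2975 and 3052 CPM in LGR5-high cells against 5297 and 5351 CPM in LGR5-negative cells. The pigs were close within each population, with a coefficient of variation of 1.79% in LGR5-high and 0.719% in LGR5-negative. The mean CPM was 1.77-fold higher in LGR5-negative, and the log2 fold change was -0.82 (SE = 0.0884, edgeR adjusted p = 0.00112). POSTN was called lower in all 14 alternative settings, with log2 fold changes between -0.84 and -0.60.

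For TGFBI no difference between the populations beyond the spread between pigs was detected. It had 200.3 and 210.0 CPM in LGR5-high cells against 253 and 206 CPM in LGR5-negative cells. The smaller LGR5-high value lay just below both LGR5-negative values and the larger one between them, so the populations overlapped. The log2 fold change was -0.16 with a 95% confidence interval from -0.45 to 0.12 (edgeR adjusted p = 0.298). The interval did not reach the estimate of POSTN. None of the 14 alternatives called TGFBI, and with library size only its sign turned, to 0.06.

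FBLN1 encodes fibulin-1, which binds fibronectin, elastic fibres and basement membrane proteins. It had 755 and 759 counts in LGR5-high cells against 219 and 204 counts in LGR5-negative cells. These gave 22.0 and 23.0 CPM in LGR5-high cells against 7.69 and 6.75 CPM in LGR5-negative cells, so both LGR5-high libraries were well above both LGR5-negative ones. The mean CPM was 3.11-fold higher in LGR5-high, with a log2 fold change of 1.64 (SE = 0.138, edgeR adjusted p = 0.000489). The fibulin family as a whole was split. FBLN5, which assembles elastic fibres, had a log2 fold change of 3.77 (edgeR adjusted p = 0.00151). Its estimate rests on 337 and 184 counts against 11 and 22 counts, and the pigs' own values were 4.46 and 2.83. In contrast, FBLN2 had a log2 fold change of -2.81 (edgeR adjusted p = 0.000712), with 9.42 and 5.69 CPM in LGR5-high cells against 59.6 and 46.3 CPM in LGR5-negative cells. Of 7 fibulin genes tested, 5 were higher (FBLN1, FBLN5, EFEMP1, EFEMP2 and HMCN1), FBLN2 was lower and FBLN7 was not called.

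The pigs moved the same way in 9 of the 10 genes, the exception being TGFBI. Opposite signs in the pigs occurred in 14.2% of all genes tested. Log2 fold changes at least 1 apart occurred in 7.20% of all genes tested and in none of the 10. The gap between the pigs' log2 fold changes was above the median of all genes tested, 0.202, in 6 of the 10 genes. It stayed below their 90th percentile of 0.841 in each of the 10. At such shares few or none of 10 genes would be beyond these limits, so the values do not set these genes apart. The smallest gaps were those of POSTN at 0.02 and FNDC1 at 0.06. THBS1 and SPARC were both higher in pig 95R than in pig 88R among LGR5-high cells, by 1.55 and 1.59 times, whereas TNC and FN1 were lower there, at 0.738 and 0.546 times. With 1 library of each population from each pig, these differences between animals were not tested. The 10 genes together took up 0.924% and 1.06% of the counts on named genes in LGR5-high, and 0.729% and 0.747% in LGR5-negative.

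**Figure D3:**
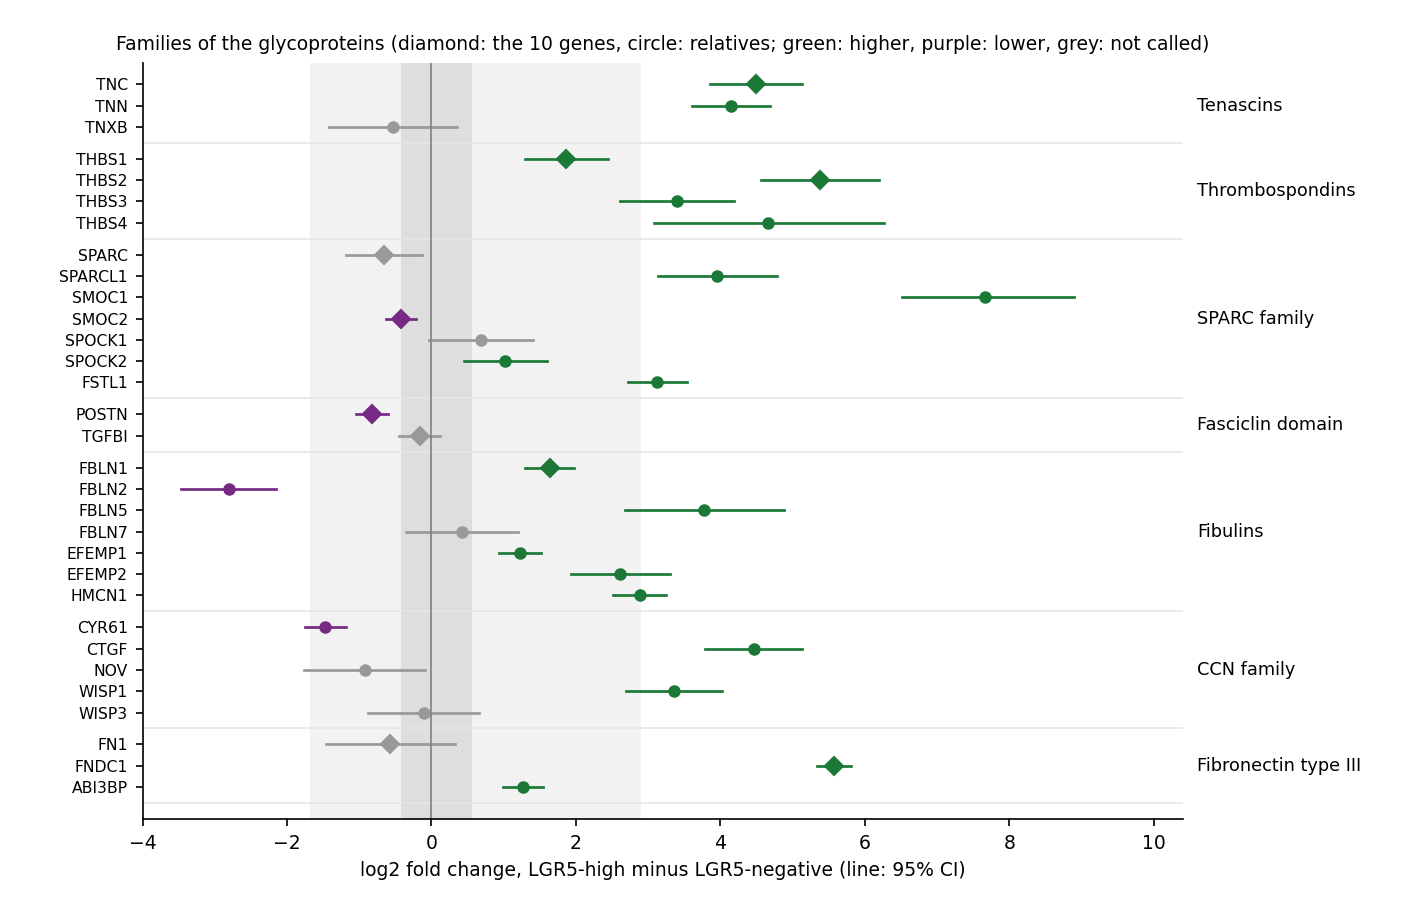
Log2 fold change (LGR5-high minus LGR5-negative) of the 10 genes (diamonds) and of tested relatives from the same families (circles), with 95% confidence intervals. Green marks higher, purple lower and grey not called. Tested relatives outside these families are not drawn. Among those, ECM1, DPT, FREM2 and MATN2 were called lower, and NPNT, EDIL3, MFGE8 and VTN higher. The grey bands hold the middle 50% and 90% of all genes tested, and the thrombospondins all lie to the right of 0, while the SPARC family, the fibulins and the CCN family have members on both sides.

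Beyond the 10 genes, a list of 39 other matricellular and fibronectin-like glycoproteins had 33 genes tested. Higher in LGR5-high were 18 of them and lower were 6, which is 54.5% and 18.2% of them beside 22.7% and 22.0% of all genes tested, so the lower share was near that of all genes. Their median log2 fold change was 1.08. With the replicate block 21 were higher and 7 lower, where 28.5% and 27.2% of all genes were. The 5 with the largest change were SMOC1, THBS4, CTGF, TNN and SPARCL1. CTGF, now called CCN2, encodes a matricellular protein known as a target of TGF-beta and YAP, and had 850 and 1147 CPM in LGR5-high cells against 35.4 and 55.4 CPM in LGR5-negative cells. Its log2 fold change was 4.46 (edgeR adjusted p = 0.000185), whereas that of CYR61, now called CCN1, was -1.47 (edgeR adjusted p = 0.000402). The CCN genes thus lay on both sides, with WISP1 (CCN4) also higher at 3.36, and NOV and WISP3 not called. NPNT, which encodes the integrin ligand nephronectin, and ECM1, a glycoprotein of the skin matrix, were called in all 14 alternatives, with log2 fold changes of 2.21 and -2.50. The call of VTN, which encodes vitronectin, was lost in 8 alternatives, among them each that left out a library. TNR, COMP, SPOCK3, WISP2, FREM1 and TNFAIP6 did not pass the filter.

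Receptors known to bind these glycoproteins were also listed, and 17 of the 20 were tested. Among these 8 were higher in LGR5-high and 4 lower, or 47.1% and 23.5%, beside 22.7% and 22.0% of all genes tested, so the lower share was close to that of all genes. The median log2 fold change was 0.13. ITGA4 and ITGA5, integrin chains that bind fibronectin, had log2 fold changes of 3.43 and 1.29 (edgeR adjusted p = 0.00362 and 0.00469). The estimate of ITGA4 rests on 112 and 78 counts against 11 and 4 counts, and the alternatives put it between 1.59 and 4.36. The epithelial integrin chain ITGB6, which binds fibronectin and tenascin-C, had 52.3 and 43.8 CPM in LGR5-high cells against 6.35 and 8.44 CPM in LGR5-negative cells. Its log2 fold change was 2.70 and that of ITGB8 was 1.14 (edgeR adjusted p = 0.000235 and 0.000506). ITGAV, the partner chain of both, had a log2 fold change of 0.82 and was called higher. Lower were SCARF1, a scavenger receptor, with a log2 fold change of -2.77 (edgeR adjusted p = 0.00186), and SDC4, STAB1 and LRP1, with values of -0.82, -1.10 and -0.69. The thrombospondin receptor CD47 was not called, with a log2 fold change of 0.13 and an edgeR adjusted p of 0.264, and CD36 had at most 18 counts in a library and was not tested. ITGA8 and ITGB3 were not tested either. The calls of ITGB1, SDC1 and DDR1, which were higher by 0.35 to 0.43 on the log2 scale, and that of STAB1 were each lost when a single library was left out.

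Many of these glycoproteins are also made by dermal fibroblasts and other cells of the dermis, so lists of their markers were read in the same libraries. The 10 dermal fibroblast genes had a summed level of 857 and 1195 CPM in the LGR5-high libraries and of 479 and 336 CPM in LGR5-negative cells. COL1A1 and COL1A2 gave 74.6% and 74.7% of this sum in LGR5-high, and 31.7% and 18.2% in LGR5-negative. The other 8 genes summed to 218 and 302 CPM in LGR5-high and to 327 and 275 CPM in LGR5-negative, so these sums overlapped. Of the 10 marker genes, 3 were higher and 5 lower in LGR5-high. The higher ones were the collagen genes COL1A1, COL1A2 and COL5A1, with log2 fold changes of 1.85, 3.70 and 1.03 (edgeR adjusted p = 0.0374, 0.00122 and 0.00847). COL1A2 had 497 and 561 CPM in LGR5-high cells against 57.7 and 24.0 CPM in LGR5-negative cells, and so moved in the same direction as TNC, THBS2 and FNDC1. Among the lower ones was another collagen gene, COL3A1, with a log2 fold change of -3.09 (edgeR adjusted p = 0.00596). It had 5.32 and 5.21 CPM in LGR5-high cells against 67.7 and 22.1 CPM in LGR5-negative cells, so the collagen genes of this list went both ways. Of the other lower genes, LUM had 5 and 0 counts and PDGFRA 4 and 3 counts in LGR5-high. DCN, which encodes decorin, still had 83.4 and 112 CPM there. The call of COL1A1 was lost without either library of pig 95R, and that of PDGFRA without either LGR5-high library. The part of fibroblasts in the higher genes was not tested.

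Other cell types were read in the same way. Of 11 keratinocyte genes tested, 6 were lower in LGR5-high and none was higher, and their sum was 45154 and 48006 CPM there and 112547 and 101067 CPM in LGR5-negative, where KRT1 and KRT10, keratins of differentiating layers, were high. The other keratinocyte genes called lower were PKP1, ITGA6, ITGB4 and COL17A1, with log2 fold changes of -0.86, -0.94, -0.38 and -0.47. The part of these keratinocyte differences in the results on the 10 genes was not tested. The 8 smooth muscle and pericyte genes summed to 792 and 691 CPM in LGR5-high and to 579 and 674 CPM in LGR5-negative, with 5 of 7 tested genes higher, 1 lower, and DES at no more than 2 counts in any library. The LGR5-high sums thus lay above the LGR5-negative ones, but only with TAGLN included, and without it their order was reversed. TAGLN had 389 and 277 CPM in LGR5-high cells against 11.4 and 9.99 CPM in LGR5-negative cells, whereas NOTCH3 was called lower in LGR5-high. The contractile genes ACTA2 and MYH11 were among the 5 called higher, but stayed at or below 5.51 CPM in every library. The 8 dermal papilla genes summed to between 41.0 and 43.1 CPM in LGR5-high and between 49.4 and 56.1 CPM in LGR5-negative, with 2 of 6 tested genes higher, 1 lower, and SOX2 at 3 and 5 counts in LGR5-high and 0 in LGR5-negative. The endothelial genes summed to at most 7.60 CPM in LGR5-high against at least 21.5 CPM in LGR5-negative, and the immune genes to at most 22.4 CPM against at least 139 CPM, with CD3E at the floor throughout, and 5 of 6 endothelial and 3 of 6 immune genes tested were lower in LGR5-high. The immune gene AIF1 was called higher, with a log2 fold change of 2.15. The melanocyte genes summed to 61.9 CPM in both LGR5-high libraries, and to 82.7 and 256 CPM in LGR5-negative cells. Of the 6 tested, 4 were lower in LGR5-high and none was higher. The Schwann and nerve genes summed to 58.9 and 78.9 CPM in LGR5-high and to 5.44 and 10.8 CPM in LGR5-negative, with NGFR, which outer root sheath cells are also known to express, at 51.1 and 65.0 CPM in LGR5-high. Of the 4 tested, NGFR and S100B were called higher, with log2 fold changes of 4.74 and 2.81, SOX10 was called lower, with -2.69, and CDH19 had no count in any library. The call of S100B was lost without the LGR5-high library of pig 95R, and that of SOX10 without that of pig 88R. Other calls were also lost when a single library was left out. These were KDR, TEK and CLDN5 of the endothelial list and PMEL, TYR and MLANA of the melanocyte list. The same held for MYH11 and RGS5 of the smooth muscle and pericyte list, and for ITGB4 and COL17A1 of the keratinocyte list. The part of endothelial, immune and melanocyte cells in the lower values of POSTN, SMOC2 and SPARC in LGR5-high was not tested, nor was that of smooth muscle or nerve cells in the higher genes.

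**Figure D4:**
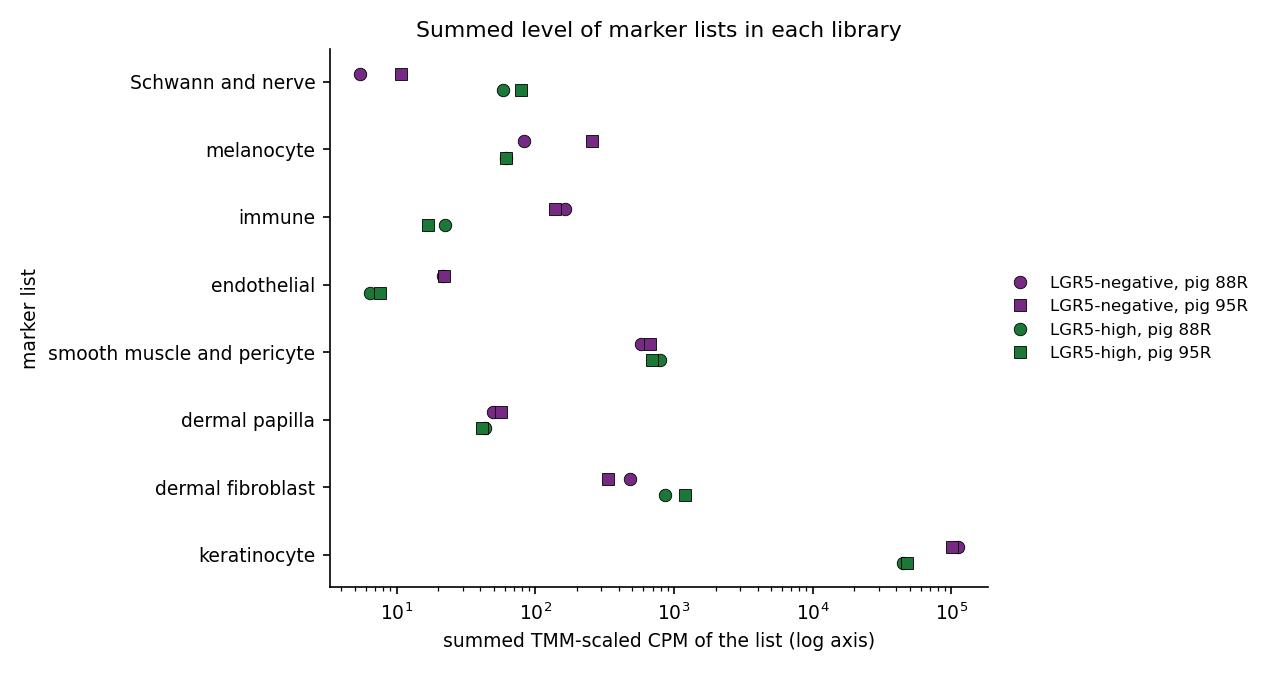
Summed TMM-scaled CPM (log axis) of each list of cell type markers in the LGR5-negative (purple) and LGR5-high (green) libraries of pigs 88R (circles) and 95R (squares). Keratinocyte genes are at least 45154 CPM in every library, the fibroblast and nerve sums are higher in LGR5-high, and the immune and endothelial sums are lower there.

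TNC, THBS1, THBS2 and FBLN1 were called higher in 13 of 14 alternatives each, the exception being a test of each gene by itself on log2 CPM, and FNDC1 in all 14. When plain library size replaced TMM, the median log2 fold change of all genes tested moved from 0.02 to 0.24 and the share of higher genes among those called from 50.9% to 70.2%, and the 5 higher genes and POSTN kept their calls. When the libraries were left out 1 at a time, the log2 fold change of TNC stayed between 4.20 and 4.82, that of THBS1 between 1.52 and 2.14, that of THBS2 between 4.98 and 5.89 and that of FBLN1 between 1.54 and 1.73.

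**Figure D5:**
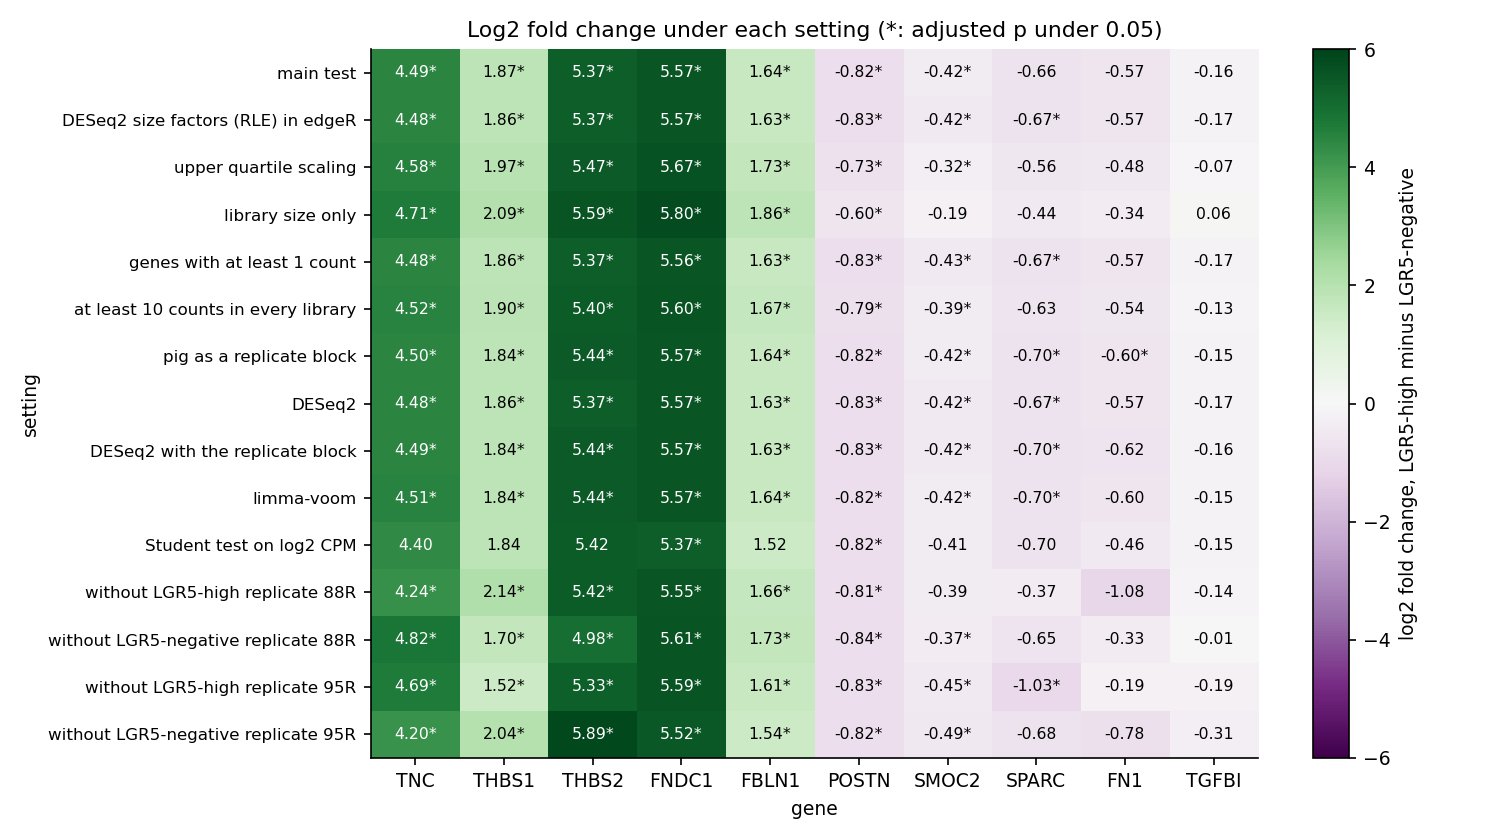
Log2 fold change (LGR5-high minus LGR5-negative; colour and number) of the 10 genes (columns) in the main test and in the 14 alternative settings (rows), with an asterisk where the adjusted p was under 0.05. FNDC1 and POSTN carry an asterisk in every row and TGFBI in none, SPARC carries it in 7 alternatives, and the only change of sign is that of TGFBI with library size only.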

How the data were processed

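RNA sequencing of LGR5-high and LGR5-negative epidermal cells from 2 pigs was analysed. The table deposited by the authors gives raw read counts, not normalized, for each gene symbol in the 4 libraries. The submitters' processing notes name Trimmomatic 0.36, STAR 2.5.2b, featureCounts and Subread 1.5.2. The methods state poly(A) selection and paired-end sequencing. The genome build, annotation and strand setting are not given in the sources used here, so reads of overlapping genes cannot be told apart. An entry without a name, 0.360% to 0.626% of the counts, was left out. Older symbols were used for the CCN genes.

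Genes were kept by filterByExpr (minimum count 10, minimum total count 15), scaled by TMM and compared with the quasi-likelihood test of edgeR 4.0.16 in R 4.3.3, with the population as the only term, 2-sided p-values and Benjamini-Hochberg adjustment over all genes tested. Standard errors are the log2 fold change divided by the square root of the F statistic. The pigs' own log2 fold changes used a prior count of 2. No gene length was used, so levels of single genes are not compared with each other. Sums of marker lists, and shares of them, add the CPM of different genes and so lean towards long or abundant transcripts. The floor of 3 counts covers counting error only. Libraries were paired by the animal number in the labels, and libraries of the same pig deviated together from their population means (correlation 0.370). Alternatives were DESeq2 size factors, upper quartile scaling or plain library size instead of TMM; genes with at least 1 count, or at least 10 in every library; the replicate block; DESeq2 1.42.0 with and without the block; limma-voom (limma 3.58.1); Student's test, which the study's methods name, here on log2(CPM + 1), a scale chosen for this comparison; and each library left out in turn. All tests were tested on simulated data with known changes, of which each recovered most except the Student test, which recovered none. Unlike the real libraries, the simulated ones had few changed genes, the same spread for every gene and no difference between pigs. They therefore cannot show how the replicate block or the Student test performs on the real libraries.

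The 10 genes, the lists and the rule for named genes were chosen with earlier results of these data known. The rule names the 10 genes, the 5 called relatives and the 5 called receptors with the largest absolute log2 fold change, genes that passed no filter, and marker genes at the floor. Other relatives, receptors and marker genes were named after their values were seen. Exact permutation of 2 against 2 libraries cannot give a p below 0.333 and was not used. Plots were drawn with matplotlib 3.10.9.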

Additional observations from a re-analysis of the deposited data

Results flagged for a closer look

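The effect of the population on TGFBI had opposite signs in the pigs, which drew attention to it. Pig 88R had a log2 fold change, LGR5-high minus LGR5-negative, of -0.336, whereas pig 95R had one of 0.0276. The LGR5-high values of the pigs were alike, at 200.3 and 210.0 CPM, and the LGR5-negative values were 253 and 206 CPM. The difference between the pigs was not tested, since each pig gave 1 library of each population, and 14.2% of all genes tested had opposite signs.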

How the results depend on the processing

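Among the 10 genes, the main test called 5 higher and 2 lower. The higher count was 5 in each alternative except Student's test on log2 CPM, which called 1 higher and 1 lower. The lower count was 4 with the replicate block, which changed no other call of the 10 genes, and 1 with library size only. Student's test left the log2 fold changes of TNC at 4.40, THBS1 at 1.84, THBS2 at 5.42, FBLN1 at 1.52 and SMOC2 at -0.41 uncalled. Library size only left SMOC2 uncalled at -0.19 and turned TGFBI to 0.0633. SPARC was called at -0.67 with DESeq2 size factors, with genes of at least 1 count and with DESeq2, and at -0.70 with limma-voom and, in both edgeR and DESeq2, with the replicate block. FN1 was called at -0.60 with the replicate block, but not with the block in DESeq2.

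Leaving out each library in turn gave 5 higher genes each time and between 1 and 3 lower genes, with SMOC2 between -0.49 and -0.37 and SPARC between -1.03 and -0.37. Over all genes, it gave between 2279 and 3169 higher and between 2139 and 3004 lower genes, against 3632 and 3508. Library size only gave 5473 and 2326, and Student's test 544 and 502. The causes were not tested. FN1 had between 64 and 134 counts per library, and 2 pigs limit every test.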

Other observations

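THBS2 and SMOC2 are neighbouring protein-coding genes in the RefSeq annotation of Sscrofa11.1, with only a long noncoding RNA and a microRNA gene listed between them, and they differed between the populations in opposite directions. The log2 fold changes were 5.37 for THBS2 and -0.42 for SMOC2. The protein-coding gene beyond SMOC2 is DACT2, a regulator of WNT and TGF-beta signals, which had a log2 fold change of 2.28 (edgeR adjusted p = 0.000287). Beyond THBS2 lie WDR27 and C1H6orf120, with log2 fold changes of -0.02 and 0.01 (edgeR adjusted p = 0.954 and 0.937). This neighbourhood was looked up after the values of THBS2 and SMOC2 had been seen. TNC, THBS1 and FNDC1 are annotated on the same chromosome as THBS2 and SMOC2. The share of all genes tested that lie on this chromosome was not computed, so the placement cannot set these genes apart.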
